A study of Homo sapiens with 2 samples.

Results

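The HOXC cluster is 1 of the 4 human HOX clusters and holds 9 protein-coding genes, HOXC13, HOXC12, HOXC11, HOXC10, HOXC9, HOXC8, HOXC6, HOXC5 and HOXC4, in that order along the + strand of chromosome 12. The genes were chosen by name, 9 of 20136 annotated protein-coding genes, together with the sequence between them. From 2 kb before the first transcription start site (TSS) to the end of the last gene the cluster spanned chr12:54330615-54449814 of GRCh37 and held 3481 of the 28217448 CpG dinucleotides listed. Of these, 3275 had more than 5 reads in both lines and were compared, and each of the 9 genes kept CpG dinucleotides in every region described.

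DNA methylation was measured by whole-genome bisulfite sequencing, in which unmethylated cytosines are converted and methylated ones are still read as cytosine, in 2 established acute myeloid leukemia (AML) cell lines grown in DMEM with fetal bovine serum. OCI-AML3 is labelled mutant for DNMT3A, a de novo DNA methyltransferase, and the study describes the mutation as heterozygous. AML5, labelled OCI-AML5, is wild type for DNMT3A. Each line was 1 library of untreated cells, so the spread between cultures is unknown, and DNMT3A status cannot be told apart from anything else that differs between the lines. Calls totalled 902802339 (OCI-AML3) and 894828667 (AML5), with medians of 27 and 30 per nuclear CpG dinucleotide. Compared CpG dinucleotides of the cluster were read to a mean depth of 45.1 in OCI-AML3 against 32.7 in AML5, and over all protein-coding TSS windows it was 50.6 and 37.5. No expression was measured here, so neither the cell type nor the activity of any gene was checked. Over the TSS windows of 6 myeloid genes the median level was 38.5% against 56.1% in AML5, but the median difference was 1.46 percentage points. The level was higher in OCI-AML3 at 4 windows and lower at 2. AZU1, at 3.77% against 74.5%, was the 1 window lower by more than 20 percentage points. Over all protein-coding genes 8.61% were this much lower.

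HOX genes encode transcription factors that bind DNA through the homeodomain and give cells their position along the head-to-tail axis of the embryo. Within a cluster the order of the genes follows the order in which they are used along that axis, with the highest numbers acting most posteriorly. In blood, HOX genes are active in stem and progenitor cells, mainly those of the HOXA and HOXB clusters, and Polycomb proteins and DNA methylation mark silent HOX genes. Methylation of a CpG-rich start site generally accompanies silence, while methylation within a gene does not.

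Every HOXC gene has 2 coding exons, and the homeobox, the 180 bases that encode the 60 residues of the homeodomain, lies in the last one. The homeoboxes of 7 genes are shown because this is the stretch the genes have in common, and because methylation of the same codons went in different directions from gene to gene. The sequences are the GRCh37 + strand, 5′ to 3′, with each CpG dinucleotide in capitals.
HOXC13 chr12:54338825-54339004: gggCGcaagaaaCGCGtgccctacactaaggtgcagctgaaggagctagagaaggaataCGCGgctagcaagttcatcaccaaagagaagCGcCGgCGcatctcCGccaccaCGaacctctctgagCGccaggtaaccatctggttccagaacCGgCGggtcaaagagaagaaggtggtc
HOXC12 chr12:54350141-54350320: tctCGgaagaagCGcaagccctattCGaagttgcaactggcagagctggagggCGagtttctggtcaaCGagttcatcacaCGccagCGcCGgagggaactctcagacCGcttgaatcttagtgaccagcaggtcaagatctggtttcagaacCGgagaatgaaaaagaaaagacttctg
HOXC11 chr12:54368976-54369155: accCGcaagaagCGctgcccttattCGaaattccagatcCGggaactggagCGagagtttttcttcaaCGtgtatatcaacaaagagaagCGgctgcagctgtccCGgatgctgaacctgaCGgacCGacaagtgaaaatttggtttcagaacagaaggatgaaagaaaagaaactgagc
HOXC10 chr12:54383003-54383182: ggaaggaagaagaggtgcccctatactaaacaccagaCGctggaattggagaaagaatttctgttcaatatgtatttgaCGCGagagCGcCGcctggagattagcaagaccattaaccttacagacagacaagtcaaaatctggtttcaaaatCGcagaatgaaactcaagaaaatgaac
HOXC9 chr12:54396249-54396428: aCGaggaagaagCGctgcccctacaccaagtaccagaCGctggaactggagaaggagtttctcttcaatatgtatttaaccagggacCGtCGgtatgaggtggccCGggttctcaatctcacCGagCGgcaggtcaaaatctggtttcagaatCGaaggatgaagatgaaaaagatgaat
HOXC6 chr12:54423459-54423638: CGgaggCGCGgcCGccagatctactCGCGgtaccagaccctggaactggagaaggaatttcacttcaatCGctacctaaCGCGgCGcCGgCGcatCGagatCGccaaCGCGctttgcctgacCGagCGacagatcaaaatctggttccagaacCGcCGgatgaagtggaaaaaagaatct
HOXC4 chr12:54448660-54448839: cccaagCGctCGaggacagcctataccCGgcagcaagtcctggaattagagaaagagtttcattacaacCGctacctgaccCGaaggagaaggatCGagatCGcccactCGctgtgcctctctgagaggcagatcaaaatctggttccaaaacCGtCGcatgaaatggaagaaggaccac

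The homeoboxes were 50.6% to 77.8% identical to each other and held 97 CpG dinucleotides in all, 6 to 20 per gene, every one of which was compared. The homeobox of HOXC6 was far more methylated in OCI-AML3, at 82.9% against 24.04% in AML5, and that of HOXC12 far less, at 9.25% against 54.9%. HOXC11 had 55.0% in OCI-AML3 against 15.3%. In all, the level was higher in OCI-AML3 in 5 of the 9 homeoboxes, 3 of them by more than 20 percentage points, and lower in 4, 2 of them by more than 20. Those of HOXC4, at 68.5% and 47.6%, and HOXC9, at 28.4% and 8.79%, were also higher in OCI-AML3. HOXC13 had similar mean levels, 47.5% and 51.4%, and HOXC10 was nearly unmethylated in both lines, at 2.29% and 3.52%.

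By a two-sided Fisher's exact test on the calls of each CpG dinucleotide, with Benjamini-Hochberg adjustment over all 24454751 nuclear CpG dinucleotides compared, 38 of the 97 homeobox CpG dinucleotides were more methylated in OCI-AML3 and 16 less. Over all nuclear CpG dinucleotides the shares were 3.86% more and 14.7% less. The test compares the reads of 2 libraries, not the DNMT3A genotypes, and 1 read can give several calls. In HOXC6, 19 of 20 homeobox CpG dinucleotides were called higher, and in HOXC12 8 of 10 were called lower. In HOXC11 5 of 10 were called higher and none lower, while no homeobox CpG dinucleotide of HOXC10 or HOXC9 was called in either direction. In HOXC13, with similar mean levels, 3 of 13 were called higher and 4 lower.

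Some CpG dinucleotides stand at the same base of several homeoboxes. Base 154, counted from 1 at the 5′ end of the homeobox, opens codon 52, an arginine codon just after the asparagine that touches DNA, and was a CpG dinucleotide in 8 of the 9 genes. At this base HOXC12 was methylated in 0 of 77 reads in OCI-AML3, which allows a share of up to 3.90%, and at 66.04% in AML5, and HOXC6 at 90.6% and 35.5%. It was higher in OCI-AML3 in 6 of the 8 genes. Base 91, the first of codon 31, was a CpG dinucleotide in 8 genes too, higher in OCI-AML3 in 4 and lower in 4. HOXC12 had 11.5% in OCI-AML3 and 96.2% in AML5 there, and HOXC6 65.96% and 2.08%. The counts of both bases include genes nearly unmethylated in both lines, where few reads set the direction. At base 91 HOXC10 had 0% (19 reads) in OCI-AML3 and 5% (20 reads) in AML5. At base 154 it had 6.06% (33 reads) and 0% (40 reads).

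Across the whole cluster the mean methylation level was 41.5% against 33.6%, so OCI-AML3 was the more methylated line by 7.88 percentage points. The standard deviation over CpG dinucleotides was 34.1 and 30.7. As a share of all calls the level was 41.6% in OCI-AML3 (Wilson 95% interval 41.4 to 41.9) and 34.6% in AML5 (34.3 to 34.9), intervals that cover counting error only. Over chromosome 12 OCI-AML3 was the less methylated line, at 67.5% against 75.8%, and so it was over all nuclear chromosomes, at 67.6% against 75.4%. The direction in the cluster was thus opposite to that of the chromosome. The 100 kb upstream of the cluster had 51.1% against 56.7% in AML5, and the 100 kb downstream 53.7% and 54.9%.

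Of the 3275 compared CpG dinucleotides, 848 (25.9%) were called higher in OCI-AML3 and 499 (15.2%) lower. The share called lower was near the 14.7% of the genome, and the share called higher was well above its 3.86%. In OCI-AML3 27.6% of the CpG dinucleotides were methylated above 66% and in AML5 18.0%, while 37.9% and 44.2% were below 20%. Over the same CpG dinucleotides the levels of the lines had a Pearson correlation of 0.42 (n = 3275), a description over sites that share libraries. Neighbours 1 to 50 bp apart had a correlation of 0.73 in OCI-AML3 and 0.53 in AML5, and neighbours 51 to 200 bp apart 0.47 and 0.22. Levels of nearby CpG dinucleotides were thus more alike in OCI-AML3.

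Of 120 bins of 1 kb, 92 held at least 10 compared CpG dinucleotides. Among them 26 (28.3%) were more than 20 percentage points higher in OCI-AML3 and 6 (6.52%) more than 20 lower, against 1.6% higher and 13.3% lower over the genome. The bins of OCI-AML3 spanned 0.13% to 85.8% and those of AML5 4.27% to 73.8%. The lowest and the highest bins of OCI-AML3 lay 2 kb apart, at chr12:54411001-54412000 and chr12:54413001-54414000, between HOXC8 and the canonical HOXC6 transcript. AML5 had 20.4% and 40.1% in these bins.

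**Figure D1:**
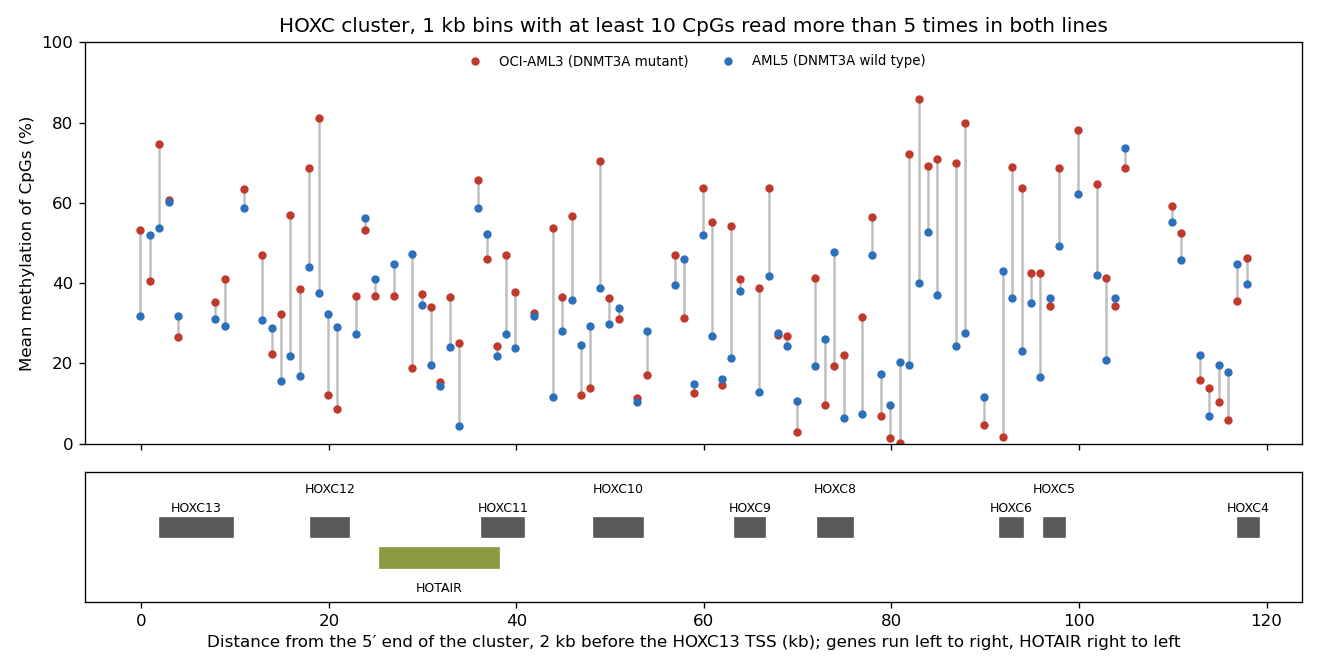
Mean DNA methylation level (%) of 1 kb bins across the HOXC cluster, plotted by distance in kb from its HOXC13 end, for OCI-AML3 and AML5 (1 library each), with grey lines joining the lines' values and the canonical transcripts drawn as boxes underneath. OCI-AML3 spans 0.13% to 85.8% and AML5 4.27% to 73.8%, and 26 of the 92 bins are more than 20 percentage points higher in OCI-AML3 and 6 more than 20 lower.

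For the genes, the level was averaged over the 2 kb on either side of the most upstream annotated TSS. HOXC12 was the one gene past 20 percentage points, and it was higher in OCI-AML3. Over 19642 protein-coding genes 1.79% were this much higher and 8.61% this much lower. In OCI-AML3 the 9 windows ran from 15.1% at HOXC6 to 60.2% at HOXC13, and in AML5 from 17.4% at HOXC4 to 53.8% at HOXC13. The level was higher in OCI-AML3 at 5 of the 9 genes, with a median difference of 6.42 percentage points, against -4.68 over all genes. Gene bodies were higher in OCI-AML3 at 8 of 9 genes, with a median difference of 8.79 against -4.97 over all genes. None of the 9 bodies passed 20 percentage points, where 0.614% of all genes were this much higher and 6.57% this much lower. The genes share sequence. The annotated body of HOXC6 starts before HOXC9 and covers HOXC9 and HOXC8, and that of HOXC4 covers the canonical HOXC6 transcript and HOXC5. Over the canonical transcripts 7 of 9 were higher in OCI-AML3 and 2 lower, with a median difference of 7.69. HOXC4 was lower there, at 43.6% against 50.7% in AML5, where its annotated body had 47.6% and 35.5%.

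HOXC4, HOXC6 and HOXC9 have upstream transcripts, and their canonical TSS lies well inside the annotated gene. Around the canonical TSS HOXC9 had 42.2% (OCI-AML3) against 29.3% (AML5), HOXC6 35.0% and 32.1%, and HOXC4 30.9% and 35.4%. All 3 differences changed sign from the most upstream TSS, where HOXC9 had 30.4% and 33.8%, HOXC6 15.1% and 20.9%, and HOXC4 25.4% and 17.4%. HOXC12 remained the one gene past 20 percentage points, with 1.81% of all genes this much higher and 8.71% this much lower by the canonical TSS.

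**Figure D2:**
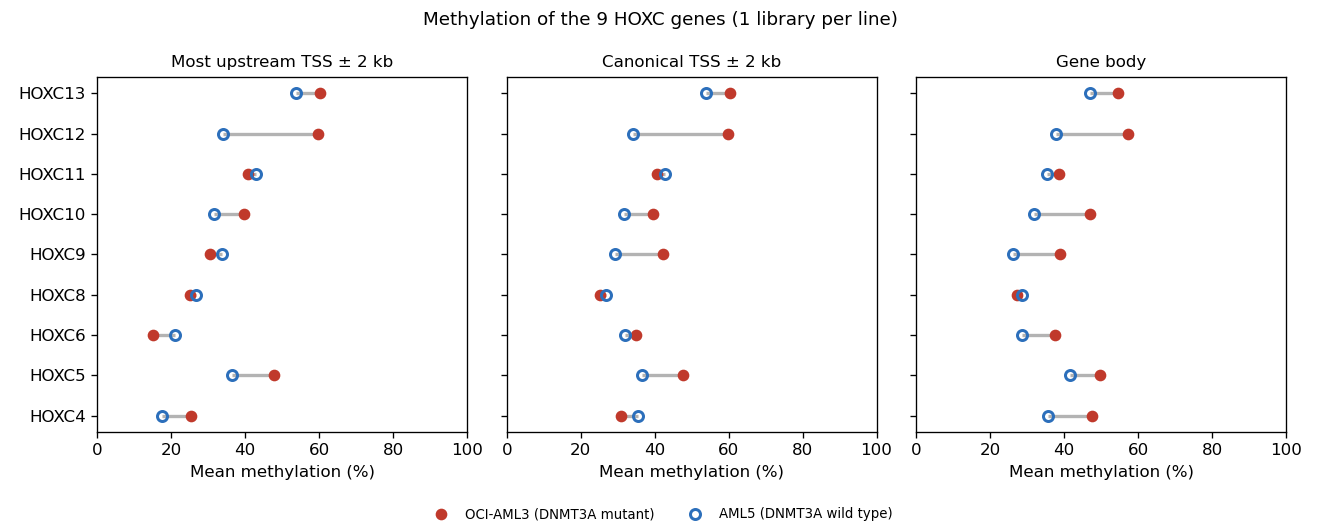
Mean DNA methylation level (%) of the 9 HOXC genes in OCI-AML3 (filled) and AML5 (open), 1 library each, within 2 kb of the most upstream TSS, within 2 kb of the canonical TSS and over the gene body. HOXC12, at 59.7% against 34.1%, is the widest pair at the TSS, and 8 of 9 gene bodies are higher in OCI-AML3.

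HOXC13 (chr12:54332615-54340328), a regulator of hair keratin genes, was the most methylated of the 9 windows in both lines, at 60.2% in OCI-AML3 and 53.8% in AML5. The 11 CpG dinucleotides nearest its TSS had 73.1% and 57.7% of calls methylated. Its first coding exon was higher in OCI-AML3, at 80.2% against 61.5%, with 31 of 77 CpG dinucleotides called higher and 4 lower. Its second coding exon had nearly the same level in the lines, 39.1% and 39.2%, with 5 of 20 called higher and 4 lower.

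HOXC12 (chr12:54348687-54352740), a posterior HOX gene, had 59.7% ± 34.5 in OCI-AML3 and 34.1% ± 29.6 in AML5 (SD over 182 CpG dinucleotides). In its window 98 of 182 were called higher in OCI-AML3 and 16 lower, where 4.82% and 12.7% of the CpG dinucleotides of all protein-coding windows were called. By signed difference, OCI-AML3 minus AML5, its 25.6 percentage points ranked above 98.9% of protein-coding genes. This is not a rank by size, since 8.61% of all genes were more than 20 percentage points lower. Upstream of the TSS the 2 kb had 46.2% and 18.9%, and downstream 65.4% and 40.5%, so both sides were higher in OCI-AML3. By 4 values, the window and body levels of each line, the HOX gene of another cluster nearest to HOXC12 was HOXD8 (Euclidean distance 8.91 percentage points, 30 genes compared). Among 19315 protein-coding genes the nearest were SOWAHB, FAM43B and HAND2, at distances of 4.30, 5.21 and 5.76.

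HOXC11 (chr12:54366910-54371427), another posterior gene, had 40.7% against 42.9% in its window, where 31 of 168 CpG dinucleotides were called higher and 38 lower. As a share of calls the window difference was -9.79 percentage points, against -2.22 as the mean over CpG dinucleotides. The 11 CpG dinucleotides nearest the TSS were highly methylated in both lines, with 83.3% and 66.03% of calls. Coding levels were 51.7% and 60.04% in the first exon and 53.0% and 11.2% in the second. Over the body the mean level was 38.5% and 35.3%, and as a share of calls the body was lower in OCI-AML3, with a difference of -5.31 percentage points.

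HOXC10 (chr12:54378930-54384063), which helps specify lumbar motor neurons, changed direction at its TSS. The 2 kb upstream had 13.4% in OCI-AML3 and 27.3% in AML5, with 23 of 82 CpG dinucleotides called lower and none higher. Downstream the 2 kb had 59.0% and 34.7%, with 51 of 111 called higher and 6 lower. The 11 CpG dinucleotides nearest the TSS had 8.82% of calls methylated in OCI-AML3 (Wilson 95% interval 6.44 to 11.97) and 29.8% in AML5 (25.2 to 34.9). In the first coding exon, just past them, the levels were 78.8% and 36.9%.

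HOXC9 (canonical transcript chr12:54393945-54397121), which sets thoracic identity in the spinal cord, had 59.6% of calls methylated in OCI-AML3, against 38.8% in AML5, at the 11 CpG dinucleotides nearest its canonical TSS. In the 2 kb upstream 24 of 53 CpG dinucleotides were called higher and none lower, at 42.5% and 17.2%. Its body was higher in OCI-AML3, at 39.0% against 26.2%.

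HOXC8 (chr12:54402769-54406553), which acts at the level of the forelimb and thorax, had a lower body level in OCI-AML3, at 27.3% against 28.7%. Its window had 25.1% and 26.8%, with 27 of 101 CpG dinucleotides called lower and 8 higher. Both coding exons were lower in OCI-AML3, at 5.34% against 29.4% and 1.56% against 23.2%. The size of its window difference depended on reads: with at least 10 reads in both lines it was -15.0 percentage points, and as a share of calls -14.4, against -1.70 as measured here. Its body difference likewise was -13.1 with at least 10 reads and -12.3 as a share of calls, against -1.36.

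HOXC6 (canonical transcript chr12:54422224-54424607), a gene of the forelimb level and the mammary gland, was nearly unmethylated at its canonical TSS in OCI-AML3 and about evenly mixed in AML5. The 11 nearest CpG dinucleotides had 1.37% of 512 calls methylated in OCI-AML3 (Wilson 95% interval 0.664 to 2.79) and 51.6% of 481 in AML5 (47.1 to 56.0). Within AML5 single CpG dinucleotides among the 11 ran from 0% to 92.5%, and in OCI-AML3 none was above 3.92%. Of the 11, 9 were called lower in OCI-AML3 and none higher.

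HOXC5 (chr12:54426834-54429145), which with HOXA5 maintains the motor neurons of the diaphragm, differed in the opposite direction around its TSS. There the 11 nearest CpG dinucleotides had in OCI-AML3 63.6% of calls methylated (59.6 to 67.5) and 20.9% in AML5 (17.0 to 25.4), with 7 of 11 called higher and none lower. Its window had 47.7% and 36.5%. HOXC4 (canonical transcript chr12:54447619-54449814), a gene also used in lymphoid cells, had 46.1% and 45.0% at the 11 nearest CpG dinucleotides, 3 called higher and 3 lower.

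Levels of the coding exons differed widely between the lines and between the genes. First coding exons were more than 20 percentage points higher in OCI-AML3 at 2 of 9 genes, HOXC12 and HOXC10, and lower at 3, HOXC8, HOXC6 and HOXC4. Over 9101 genes the shares were 4.25% and 9.41%. Last coding exons were this much higher at 5 of 9 genes and lower at 2, HOXC12 and HOXC8, against 1.44% and 9.52% of 7591 genes. In HOXC12, HOXC6 and HOXC4 the exons went past 20 percentage points in opposite directions, which 1.08% of 4448 genes with at least 5 compared CpG dinucleotides in each exon did. This comparison was chosen after the values had been seen.

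HOXC12 had 84.1% (OCI-AML3) against 42.8% (AML5) in its first coding exon, with 59 of 83 CpG dinucleotides called higher and none lower. Its last coding exon had 7.92% and 52.2%, with 12 of 14 called lower. HOXC6 was the reverse, with 2.47% and 62.9% in the first, where all 19 compared CpG dinucleotides were called lower, and 72.0% and 28.2% in the last, where 20 of 30 were called higher. HOXC4 followed HOXC6, with 35.9% and 65.5% in the first and 75.7% and 39.8% in the last. In OCI-AML3 each of these genes thus had 1 highly methylated coding exon and 1 with little or moderate methylation, while in AML5 all 6 exons lay between 28.2% and 65.5%.

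**Figure D3:**
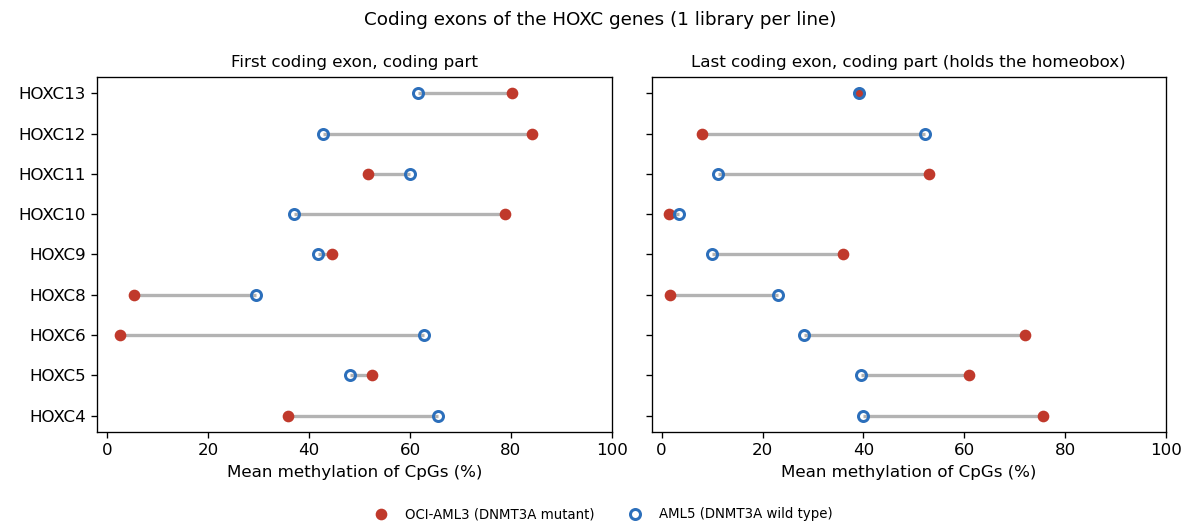
Mean DNA methylation level (%) of the coding part of the first and the last coding exon of each HOXC gene in OCI-AML3 (filled) and AML5 (open), 1 library each. The grey lines point in opposite directions between the panels at HOXC12, HOXC6 and HOXC4, with HOXC6 at 2.47% against 62.9% in the first exon and 72.0% against 28.2% in the last.

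**Figure D4:**
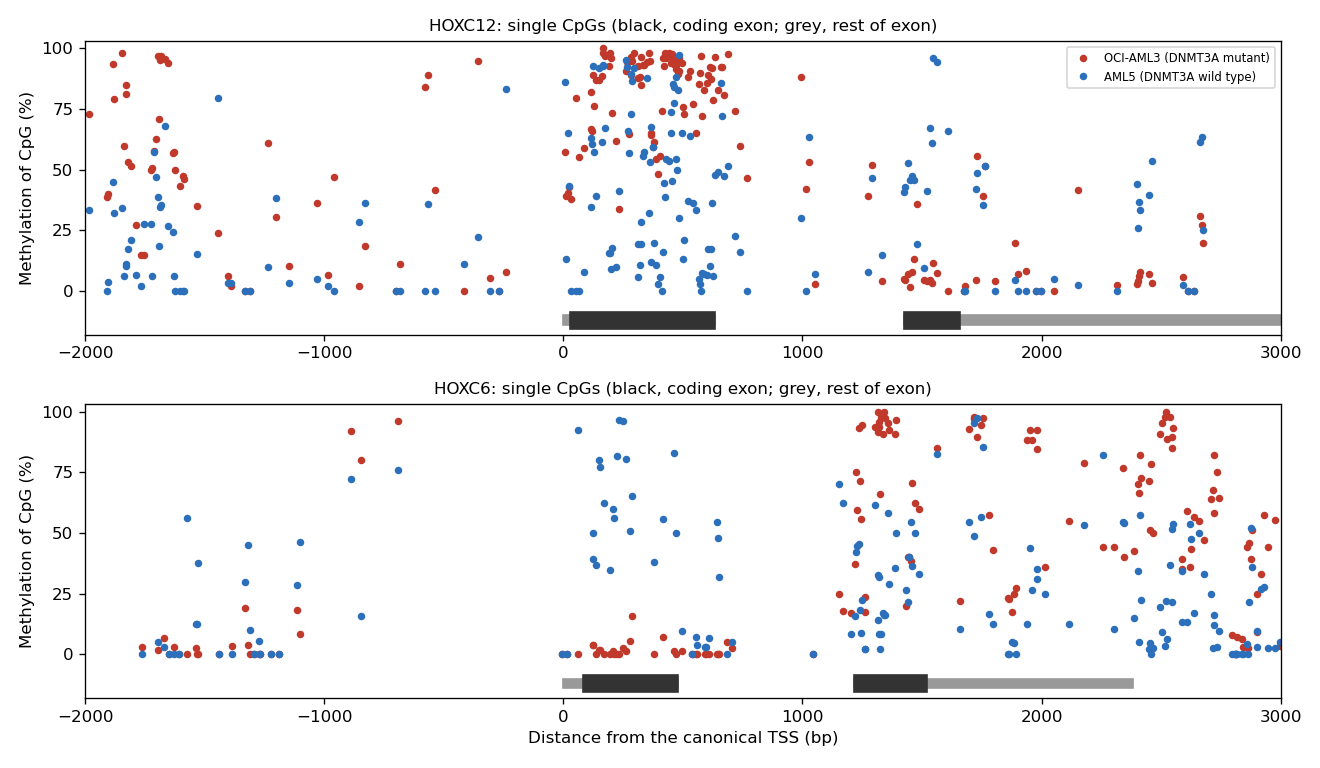
DNA methylation level (%) of single CpG dinucleotides by distance in bp from the canonical TSS of HOXC12 and HOXC6 in OCI-AML3 and AML5, with exons drawn underneath (black where coding). In OCI-AML3 the first coding exon averages 84.1% in HOXC12 and 2.47% in HOXC6, and the last 7.92% and 72.0%.

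Many but not all called CpG dinucleotides lay in runs of at least 3, 552 of the 848 called higher and 306 of the 499 called lower. The same share over the genome was not measured. The cluster held 93 runs of at least 3 consecutive CpG dinucleotides called higher in OCI-AML3, covering 8031 bp, and 63 runs called lower, covering 3102 bp. Over all nuclear chromosomes there were 51223 higher and 282640 lower. The 5 runs of each direction with the largest mean difference, among those of at least 5 CpG dinucleotides, lay in or near HOXC12, HOXC11, HOXC6, HOXC5 and HOXC4 and between HOXC8 and HOXC6. The following 4 sequences are shown because they carry these differences, with CpG dinucleotides in capitals (GRCh37, + strand).
HOXC11 intron, lower, chr12:54368274-54368356: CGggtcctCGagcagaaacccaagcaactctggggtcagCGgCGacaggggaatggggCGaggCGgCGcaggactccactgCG
Upstream of HOXC6, higher, chr12:54418051-54418232: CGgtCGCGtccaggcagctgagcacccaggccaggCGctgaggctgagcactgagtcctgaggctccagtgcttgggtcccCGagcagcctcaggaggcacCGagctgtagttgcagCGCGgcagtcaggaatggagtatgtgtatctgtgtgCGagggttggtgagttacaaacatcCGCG
HOXC6 first coding exon, lower, chr12:54422552-54422698: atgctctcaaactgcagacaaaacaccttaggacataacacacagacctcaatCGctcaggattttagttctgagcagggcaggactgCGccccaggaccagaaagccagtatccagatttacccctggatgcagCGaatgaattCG
HOXC4 first coding exon, lower, chr12:54447963-54448036: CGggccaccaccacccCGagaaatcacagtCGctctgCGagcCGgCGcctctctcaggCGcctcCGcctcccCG

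The HOXC11 run, of 8 CpG dinucleotides, had 7.91% in OCI-AML3 against 69.0%. The run upstream of HOXC6, with 92.9% and 19.9% over 11 CpG dinucleotides, had the largest mean difference of those called higher with at least 5 CpG dinucleotides, 72.9 percentage points. The HOXC6 sequence is the UTR-free end of a 20-CpG run that spanned chr12:54422285-54422698, with 2.34% and 64.3%. In HOXC4 the run of 9 CpG dinucleotides had 6.60% and 63.5%. Among runs of at least 5 CpG dinucleotides, the lower one with the largest difference was chr12:54411761-54411794. It had 0 of 96 calls methylated in OCI-AML3 against 72.7% in AML5, over 6 CpG dinucleotides. Mean depth there was 16 in OCI-AML3 and 10.5 in AML5, and 1 read can cover several of these CpG dinucleotides. The higher run of 28 CpG dinucleotides that followed, chr12:54412125-54412663, had 89.6% and 18.2%.

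Single CpG dinucleotides reached nearly complete opposites. In the first coding exon of HOXC12, chr12 position 54349262 was methylated in 64 of 66 reads in OCI-AML3 and 0 of 36 in AML5, which allows a share of up to 8.33% (adjusted p = 8.5e-23, Fisher's exact test). In the first coding exon of HOXC6, position 54422457 was methylated in 0 of 72 reads in OCI-AML3, which allows a share of up to 4.17%, and 57 of 59 in AML5 (adjusted p = 9.4e-32, Fisher's exact test). In the HOXC11 intron, position 54368037 was methylated in 0 of 27, which allows up to 11.1%, and 20 of 20 (adjusted p = 7.1e-12, Fisher's exact test).

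Between the canonical transcripts, OCI-AML3 was higher in 6 of the 8 intervals. HOXC6 to HOXC5 had 51.6% (OCI-AML3) against 25.6% (AML5), with 37 of 83 CpG dinucleotides called higher and 3 lower. HOXC8 to HOXC6 had 47.2% and 27.4%, with 119 of 333 called higher and 31 lower. From HOXC13 to HOXC12 the levels were 40.2% and 23.3%. HOXC12 to HOXC11, with 37.5% and 39.5%, and HOXC9 to HOXC8, with 20.9% and 21.7%, were slightly lower in OCI-AML3. Outside the bodies and TSS windows of the 9 HOXC genes, in sequence that includes part of HOTAIR and HOXC-AS3, the level was 37.9% and 32.5% over 572 CpG dinucleotides. All of this sequence lay between HOXC13 and HOXC10, because annotated bodies and windows cover the rest. The difference there was 13.6 percentage points from HOXC13 to HOXC12, -2.34 from HOXC12 to HOXC11 and 16.6 from HOXC11 to HOXC10.

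Stretches in which under 20% of calls were methylated, averaged over 11 neighbouring CpG dinucleotides, were fewer in OCI-AML3. It had 51 of them over 27478 bp (23.1% of the cluster), and AML5 had 96 over 37450 bp (31.4%). Since the share is averaged over neighbours, some were single CpG dinucleotides whose own level was above 20%, and with at least 10 CpG dinucleotides there were 23 and 40. The longest in OCI-AML3, chr12:54409195-54412046, around the most upstream TSS of HOXC4, spanned 2852 bp and had 2.03% against 16.2% in AML5. The longest in AML5, chr12:54334705-54337930 in the HOXC13 intron, spanned 3226 bp with 10 CpG dinucleotides and had 11.7%, against 19.1% in OCI-AML3.

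Non-coding genes of the cluster varied with their place. HOTAIR, a long RNA from the opposite strand that interacts with Polycomb proteins, had over its body 33.9% in OCI-AML3 against 38.7%. The antisense gene HOXC13-AS had 66.1% and 48.4%, and HOXC-AS1, upstream of HOXC9, had 40.6% and 11.98%, with 20 of 40 CpG dinucleotides called higher and none lower. HOXC-AS2, at 28.0% and 32.1%, and HOXC-AS3, at 33.9% and 33.4%, differed less in mean level, with calls in both directions. In HOXC-AS2 31 of 158 CpG dinucleotides were called higher and 43 lower, and in HOXC-AS3 26 of 149 higher and 24 lower. The microRNA gene MIR615, inside HOXC5, had 8.24% and 15.5% over 7 CpG dinucleotides, none of them called. None of the 5 CpG dinucleotides of MIR196A2 had enough reads in both lines.

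The HOXA cluster had 38.0% in OCI-AML3 against 53.1%, HOXB 41.0% against 58.1%, and HOXD 58.9% against 44.02%. HOXC and HOXD were thus higher in OCI-AML3, and HOXA and HOXB lower. At the TSS windows 9 of 11 HOXA genes were lower in OCI-AML3, 6 by more than 20 percentage points. The other way, 1 HOXA gene was higher by more than 20, HOXA4, at 95.4% against 54.4% in AML5. Of 10 HOXB genes 9 were lower, 1 by more than 20. All 9 HOXD genes were higher, 5 by more than 20. Over all genes 8.61% were this much lower and 1.79% this much higher, so the HOXB count at these windows was near the share of all genes. Over gene bodies it was not, with 4 of 10 HOXB genes this much lower against 6.57% of all genes. Around its canonical TSS HOXB3 had 25.9% in OCI-AML3 and 96.4% in AML5, against 80.8% and 87.2% at its most upstream TSS. At the TSS windows the paralog HOXA10 had 2.13% and 63.7% where HOXC10 had 39.7% and 31.6%. Around its canonical TSS HOXA10 had 0.261% and 24.9%. HOXD12 had 64.6% and 41.4% where HOXC12 had 59.7% and 34.1%. Of 9 genes of the MEIS, PBX and PKNOX cofactors of HOX proteins, 7 were lower in OCI-AML3 at their TSS windows. Of these, 1 was lower by more than 20 percentage points, again near the share of all genes. The median difference was -2.92, against -4.68 over all genes. Of 15 Polycomb and trithorax genes, whose products maintain HOX silence and activity, 14 were lower, with a median of -2.78 against the same -4.68 and none past 20.

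**Figure D5:**
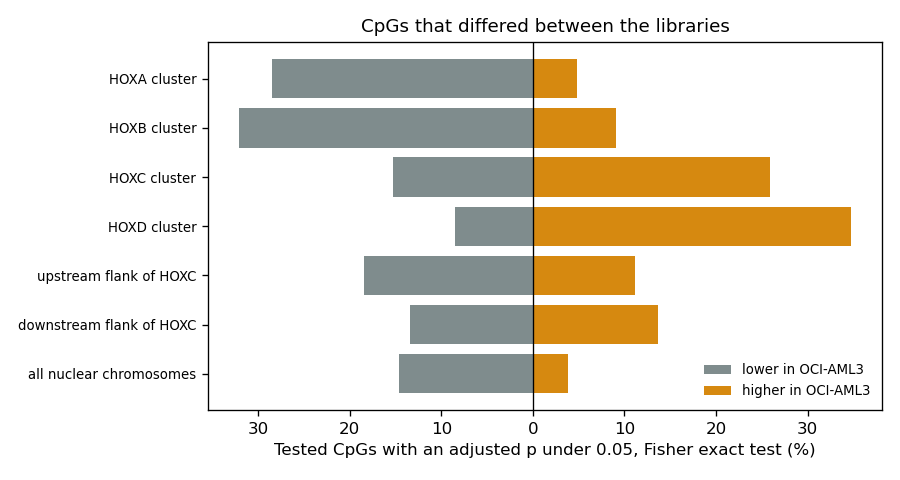
Share (%) of compared CpG dinucleotides called lower (left) and higher (right) in OCI-AML3 by Fisher's exact test in the 4 HOX clusters, the 100 kb flanks of HOXC and all nuclear chromosomes. HOXC has 25.9% called higher and 15.2% lower, and all nuclear chromosomes 3.86% and 14.7%.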

How the data were processed

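Genomic DNA of the 2 lines was bisulfite converted, sequenced in paired reads, aligned to hg19 (GRCh37) and called by the authors with Bismark, and the submitters' processing notes list Bowtie 0.12.8. Whether duplicate reads were removed is not given in the sources used here. At each CpG dinucleotide the authors deposited a pair of counts, of methylated and unmethylated calls, with both strands added and no normalization. The deposited position is the G of the CpG, and 1 was subtracted to give the C. Which column holds methylated calls was settled from mitochondrial DNA, where 0.168% (OCI-AML3) and 0.101% (AML5) of calls were methylated. Levels were averaged over those CpG dinucleotides that had above 5 reads in each line. Regions came from the GENCODE annotation lifted to GRCh37, sequences from the GRCh37 genome. Adjusted p under 0.05 was called. The Fisher's exact test was tested on simulated data. Intervals and limits cover counting error only. Intervals treat calls as independent, though 1 read can give several. No spread between cultures can be given.

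Genes were named by a rule: all HOXC genes, the non-coding genes of the cluster and same-numbered paralogs, the 5 runs per direction with the largest difference among runs of at least 5 CpG dinucleotides, and the 3 single CpG dinucleotides per direction with the largest difference and at least 20 reads in both lines. Not all of these are printed. The genes and lists were chosen with earlier results of these data known. Alternatives were the read minimum, the share of calls, the window, the TSS, the threshold, and the run and stretch settings. Some sequences and a search for a CTCF-like motif are not reported here. Calculations used Python 3.11.15 (scipy 1.17.1, numba 0.67.0, numpy 2.4.6, pandas 2.3.3), and matplotlib 3.10.9 drew the figures.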

Additional observations from a re-analysis of the deposited data

How the results depend on the processing

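No paired analysis was possible because each line is 1 library, and for the same reason no replicate could be left out. Of 58 alternatives for the main results 42 stayed within set limits of the main value and 16 moved past them. The limit was the counting error for a level and a set ratio for a count. Counts within it could still change. CpG dinucleotides called higher went from 848 to 689 at adjusted p under 0.01, and runs called higher from 93 to 72. Unmethylated stretches in OCI-AML3 went from 51 to 76 at a level under 30%. With the share of calls the median difference was 4.39 percentage points at the TSS windows and 7.59 over gene bodies, and the difference was 7.77 between genes and 7.01 over the cluster. The window median was 1.74 within 1 kb and 1.47 for the 2 kb upstream, and the body median 9.53 with at least 10 reads. Thresholds of 10 and 30 percentage points gave 2 and 0 genes higher in OCI-AML3. Runs of at least 5 CpG dinucleotides numbered 37 higher and 23 lower. Unmethylated stretches numbered 90 and 164 (OCI-AML3 and AML5) over 5 CpG dinucleotides, 23 and 58 over 21, and 48 in AML5 at a level under 10%. Of 108 alternatives for single genes 73 stayed within the counting error, 25 moved past it and 10 changed the sign. Signs changed within 1 kb at HOXC8 (1.74) and HOXC4 (-9.92), and in the 2 kb upstream at HOXC11 (3.30), HOXC10 (-11.5), HOXC8 (1.47) and HOXC4 (-6.07). An alternative added after seeing the data, the canonical TSS, changed them at HOXC9 (12.97), HOXC6 (2.92) and HOXC4 (-4.51), and with the share of calls at the HOXC11 body (-5.31). The causes were not tested. Reads were deep enough to compare 3275 of 3481 CpG dinucleotides.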
